A study of Mus musculus with 6 samples.

Results

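The mitotic cyclins and the regulators of the anaphase-promoting complex (APC/C) were followed in leukaemia cells of mice treated with a casein kinase 1 inhibitor. The 10 genes were chosen by symbol as a functional set: Ccna2, Ccnb1, Ccnb2, Cdk1, Ube2c, Ube2s, Cdc20, Fzr1, Fbxo5 and Pttg1. The choice was made with earlier results of these data known, so the shares of all tested genes given below are description and no test of the set. All 10 were found, each as 1 row, among the 54232 genes of the count table, and all 10 were among the 10067 genes with enough counts to test. Chronic lymphocytic leukaemia (CLL) cells had been sorted from the spleens of wild-type C57BL/6J mice injected in the peritoneum with Eµ-TCL1 leukaemia cells, a transfer model in which the TCL1 oncogene is expressed in B cells. The CK1i group (3 libraries) was given the compound PF-670462, which blocks the delta and epsilon forms of casein kinase 1, orally at 50 mg/kg. The CTRL group (3 libraries) was given 10% kolliphor/PBS orally. Treatment of both groups began on day 5 after transfer, followed a rhythm of 5 days of dosing then 2 days of rest, and ended when CTRL mice had at least 60% leukaemia cells among blood leukocytes. The labels give no age and no number of donor mice. Nor do they say whether every library is a separate animal, and the p-values therefore reflect library-to-library spread, which may be technical.

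Cyclin-dependent kinase 1 bound to cyclin A2 or a B cyclin drives cells into and through mitosis. The APC/C is a ubiquitin ligase that ends mitosis by marking the cyclins and securin for destruction. Its coactivator CDC20 acts from prometaphase to anaphase, and its coactivator CDH1, encoded by Fzr1, acts from late mitosis through G1. UBE2C starts ubiquitin chains on APC/C substrates and UBE2S lengthens them. EMI1, encoded by Fbxo5, inhibits the APC/C while cells are in S and G2 phase. Transcripts of most of these genes peak in G2 and mitosis.

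Of the 10 genes, 9 had a higher mean in CK1i than in CTRL cells on the scale of the fit, with a median log2 fold change of 0.78, and 8 were above 0.5, where 3.85% of all tested genes were above 0.5, 48.8% of all tested genes were above 0 and the median of all tested genes was -0.0055. The difference was largest for Ube2c, at 2.71-fold, and Fzr1 and Pttg1 had the smallest differences. The groups did not overlap, with CK1i higher, for 5 of the 10 genes (Ube2c, Ccnb2, Ccna2, Cdc20 and Fbxo5), against 5.22% of all tested genes, and for 0 of the 10 with CK1i lower, against 4.48% of all tested genes. An unadjusted edgeR p under 0.05, with higher values in CK1i, was found for 7 of the 10, against 2.7% of all tested genes. None of the 10 passed the threshold, an edgeR adjusted p under 0.05 over all tested genes, and 0 of 10067 genes did (0%), while 473 had an unadjusted p under 0.05. DESeq2 called 8 genes in all, Ube2c among them, and limma-voom called 0. In bulk RNA, a larger share of dividing cells and more RNA per dividing cell cannot be told apart.

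**Figure D1:**
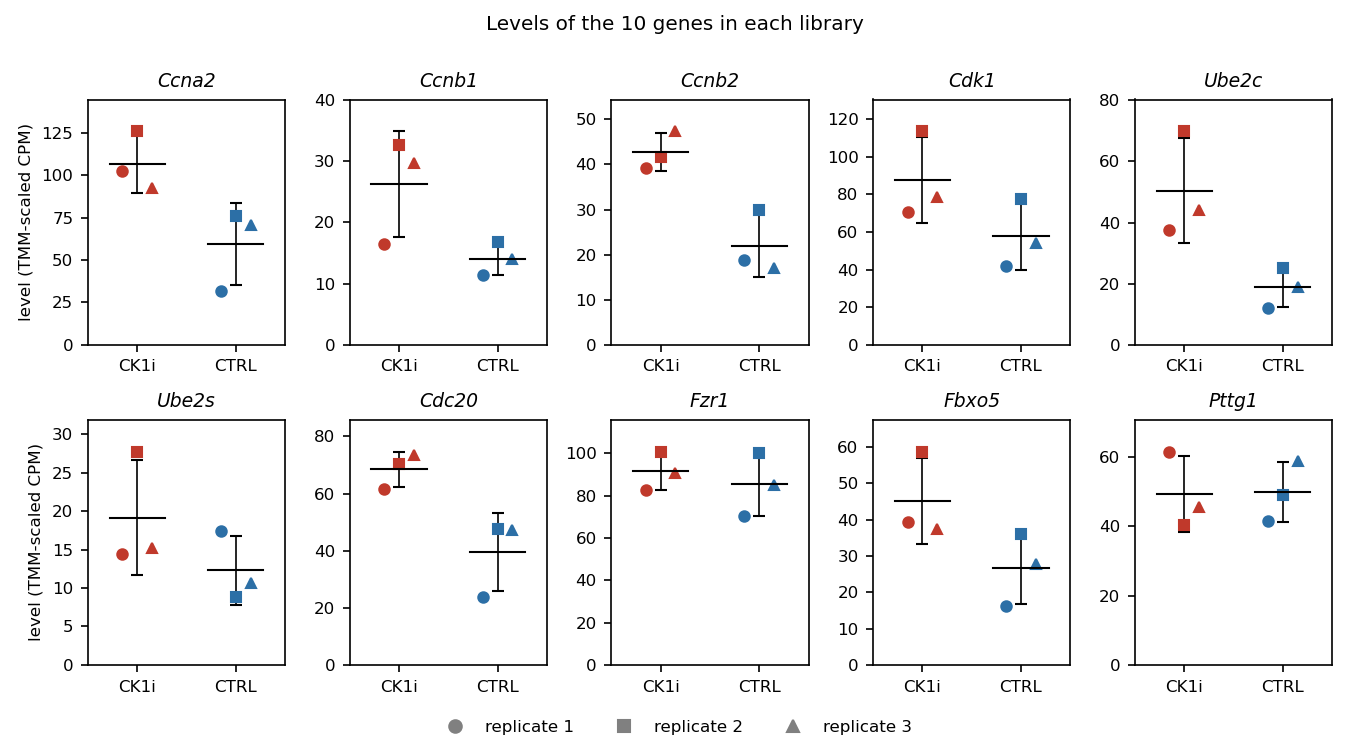
Level of each gene (vertical axes, TMM-scaled CPM, starting at 0) in the 3 CK1i libraries (red, left) and the 3 CTRL libraries (blue, right); symbols mark the replicate, horizontal bars the group mean and error bars 1 SD. The groups are apart for Ube2c, Ccnb2, Ccna2, Cdc20 and Fbxo5, and overlap for the other 5 genes.

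Levels are CPM, counts scaled to library size with TMM, a factor for library composition, and since 3' end libraries give about 1 fragment per transcript they were not divided by gene length. Gene positions are those of GENCODE M21 on GRCm38. Among the cyclins, Ccna2 (chr3:36564865-36572150), which encodes the cyclin of S phase and early mitosis, had 102, 126 and 92.6 CPM in CK1i replicates 1, 2 and 3, against 31.6, 76.2 and 70.8 CPM in CTRL replicates 1, 2 and 3. The groups did not overlap, and CTRL replicate 1 was less than any other library. Its log2 fold change was 0.85 ± 0.29 (SE; 95% interval 0.18 to 1.52; edgeR adjusted p = 0.958). Ccnb2 (chr9:70407692-70421547), a B cyclin found mainly at the Golgi apparatus, had 39.2, 41.8 and 47.3 CPM in CK1i libraries and 18.8, 29.9 and 17.03 CPM in CTRL libraries. Its CK1i values were close together, and all lay above the CTRL values. The log2 fold change of Ccnb2 was 0.97 ± 0.22 (SE; 95% interval 0.51 to 1.43; edgeR adjusted p = 0.409), and by unadjusted p it stood at place 11 of the 10067 genes. Ccnb1 (chr13:100778650-100786570), the B cyclin that moves into the nucleus at mitotic entry, had 16.5, 32.6 and 29.7 CPM in CK1i libraries and 11.4, 16.8 and 14.02 CPM in CTRL libraries. CK1i replicate 1 lay just within the range of the CTRL libraries, so the groups overlapped, and Ccnb1 had a log2 fold change of 0.90 ± 0.27 (SE; by edgeR, adjusted p = 0.806). Cdk1 (chr10:69335146-69352938), the kinase that these cyclins activate, had 70.7, 114 and 78.6 CPM in CK1i libraries and 41.9, 77.4 and 54.1 CPM in CTRL libraries. CTRL replicate 2 lay above CK1i replicate 1, and the log2 fold change was 0.60 ± 0.24 (SE; by edgeR, adjusted p = 0.9995).

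The ubiquitin-conjugating enzymes of the APC/C gave the largest difference of the set and the one with the widest interval. Ube2c (chr2:164769898-164778822) had 37.5, 69.8 and 44.1 CPM in CK1i libraries and 12.1, 25.1 and 19.0 CPM in CTRL libraries. Every CK1i value was above every CTRL value, and CK1i replicate 2 was the highest. CK1i libraries averaged 50.5 ± 17.1 CPM, against 18.7 ± 6.54 CPM for CTRL libraries (SD, n = 3 each), and the log2 fold change was 1.44 ± 0.29 (SE; 95% interval 0.80 to 2.07; edgeR adjusted p = 0.409), at place 8 of all tested genes by unadjusted p. Ube2c passed the threshold with DESeq2 (adjusted p = 0.0060). Ube2s (chr7:4794546-4812590), the gene of the chain-lengthening enzyme, had 14.5, 27.7 and 15.2 CPM in CK1i libraries and 17.4, 8.78 and 10.7 CPM in CTRL libraries. The groups overlapped because CTRL replicate 1 held the second highest value, a library that was lowest for 7 of the 10 genes. The log2 fold change of Ube2s was 0.64 ± 0.31 (SE; 95% interval -0.037 to 1.32; edgeR adjusted p = 0.9995), 0.26 without CK1i replicate 2 and 0.97 without CTRL replicate 1. With 270 counts in all, Ube2s was also the shallowest of the 10 genes.

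The coactivators of the APC/C differed from each other in size. Cdc20 (chr4:118432901-118437352) had 61.5, 70.5 and 73.4 CPM in CK1i libraries and 23.8, 47.5 and 47.4 CPM in CTRL libraries. The groups did not overlap, and the log2 fold change was 0.79 ± 0.23 (SE; 95% interval 0.30 to 1.28; edgeR adjusted p = 0.806). Fzr1 (chr10:81366222-81378516) had 82.9, 101 and 90.6 CPM in CK1i libraries and 70.6, 100.2 and 85.1 CPM in CTRL libraries. The groups overlapped for Fzr1, at a log2 fold change of 0.10 ± 0.16 (SE; 95% interval -0.24 to 0.44; edgeR adjusted p = 0.9995). The log2 ratio of Cdc20 to Fzr1 within a library, which hardly depends on how libraries are scaled, was -0.43, -0.51 and -0.30 in CK1i libraries and -1.54, -1.07 and -0.84 in CTRL libraries. The ratio was higher in all 3 CK1i libraries, by 0.73 on the log2 scale (two-sided exact permutation p = 0.1, the smallest that 20 assignments of 3 against 3 allow; 0.3 adjusted over the 3 ratios compared).

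The other ratios did not set the groups apart. The log2 ratio of Ube2c to Ube2s was 1.33, 1.31 and 1.49 in CK1i libraries and -0.50, 1.45 and 0.79 in CTRL libraries, a difference of 0.80 (exact permutation p = 0.3, adjusted p = 0.45). CTRL replicate 1, the library with low Ube2c and high Ube2s, carried much of that difference, which was 0.26 without it. Summed Ccnb1 and Ccnb2 relative to Ccna2 gave log2 ratios of -0.87, -0.75 and -0.26 in CK1i libraries and -0.065, -0.70 and -1.17 in CTRL libraries, with a difference of 0.015 (exact permutation p = 1, adjusted p = 1). The ratio overlapped between the groups and spread more widely within CTRL than the difference of the group means.

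The inhibitor gene Fbxo5 had a value above 0, and the gene of securin, a substrate of the complex, had a value near 0. Fbxo5 (chr10:5799160-5805600) had 39.5, 58.7 and 37.3 CPM in CK1i libraries and 16.3, 35.9 and 27.7 CPM in CTRL libraries. Its groups were apart by a small margin, since CK1i replicate 3 was only just above CTRL replicate 2. The log2 fold change of Fbxo5 was 0.77 ± 0.27 (SE; 95% interval 0.18 to 1.36; edgeR adjusted p = 0.929). Pttg1 (chr11:43420250-43426251) encodes securin, which holds the protease separase inactive until the APC/C destroys it. It had 61.5, 40.4 and 45.7 CPM in CK1i libraries and 41.5, 49.1 and 58.8 CPM in CTRL libraries. Here CK1i replicate 2, the highest library for 7 of the 10 genes, was the lowest. Pttg1 averaged 49.2 ± 10.97 CPM over the CK1i libraries, against 49.8 ± 8.63 CPM over the CTRL libraries (SD, n = 3 each), and the log2 fold change was -0.016 ± 0.19 (SE; 95% interval -0.43 to 0.39; edgeR adjusted p = 0.9996). The 95% intervals of Fbxo5 and Pttg1 overlapped, and those of Ube2c and Pttg1 did not. Neither difference between genes was tested.

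**Figure D2:**
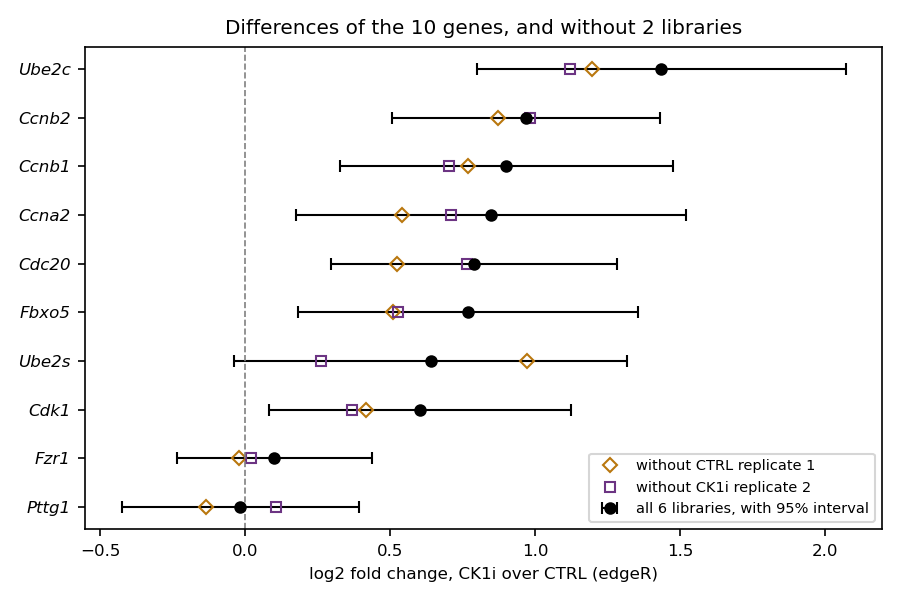
Log2 fold change of CK1i over CTRL for each gene (horizontal axis, edgeR) with all 6 libraries (filled points; bars are 95% intervals), without CTRL replicate 1 (diamonds) and without CK1i replicate 2 (squares). Ube2c is farthest to the right at 1.44, Fzr1 and Pttg1 lie near 0, and most open symbols lie to the left of the filled points.

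Most of the 10 genes were high and low in the same libraries. CK1i replicate 2 was the highest library for 7 of the 10 genes, against 14.7% of all tested genes, and CTRL replicate 1 was the lowest for 7 of the 10, against 21.8% of all tested genes. Together the 10 genes held 0.0515%, 0.0686% and 0.0559% of the counts in CK1i replicates 1, 2 and 3, and 0.0281%, 0.0473% and 0.0396% in CTRL replicates 1, 2 and 3. The mean log2 CPM over the 10 genes was 5.51, 5.93 and 5.64 in CK1i libraries and 4.64, 5.26 and 5.05 in CTRL libraries, so the groups did not overlap but CK1i replicate 1 was nearer to CTRL replicate 2 than to CK1i replicate 2. CTRL replicate 1 also stood apart over all tested genes, at 31.4 on the first principal component where the other 5 libraries lay between -12.4 and 4.68. Without CTRL replicate 1 the median log2 fold change of the 10 genes was 0.53, with 6 of the 10 apart between the groups (10.7% of all tested genes higher without overlap), and without CK1i replicate 2 it was 0.62, with 5 apart (9.29% of all tested genes). The value of Ccna2 was 0.54 and that of Cdc20 0.52 without CTRL replicate 1, and Cdk1 had 0.37 without CK1i replicate 2. Fbxo5 had 0.51 without CTRL replicate 1 and 0.53 without CK1i replicate 2, while Ube2c kept 1.20 and 1.12. What sets CTRL replicate 1 apart was not tested.

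**Figure D3:**
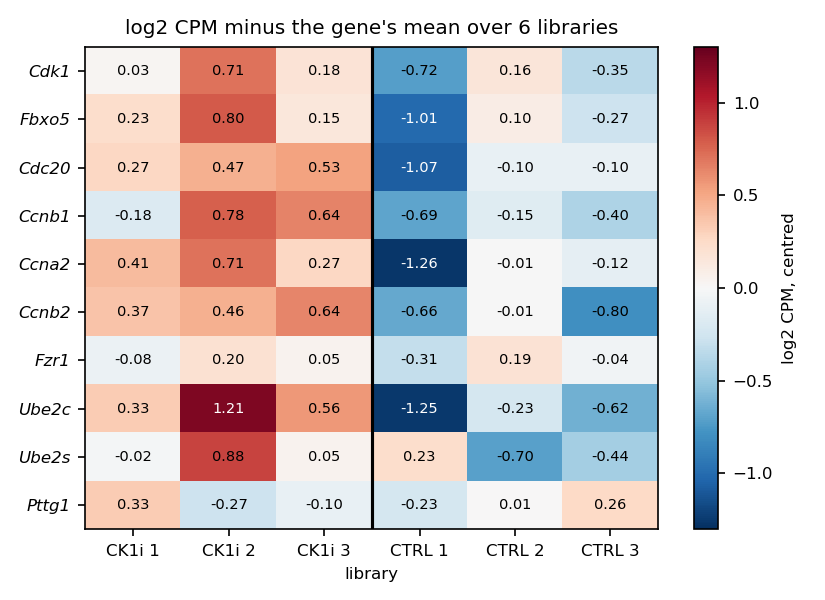
Log2 CPM of each gene minus its mean over the 6 libraries (colour and printed values), with libraries in columns and the CK1i libraries to the left of the line. Genes are ordered by how closely they follow the mean profile of the set without Fzr1, from Cdk1 at the top to Pttg1 at the bottom, and the darkest cells are those of Ube2c in CK1i replicate 2 (1.21) and of Ccna2 and Ube2c in CTRL replicate 1 (-1.26 and -1.25).

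Likeness was measured as the root mean square difference between a gene's centred log2 CPM and the mean centred profile of the members other than Fzr1, over the 6 libraries. Each member's own values are part of that mean. Cdk1 was closest among the members, at 0.14, followed by Fbxo5 at 0.17 and Cdc20 at 0.20. Ube2c, at 0.36, had the same direction in each library but a wider swing. Ube2s, at 0.499, and Pttg1, at 0.52, were no closer than the median of all tested genes, 0.497. Among the 10 closest genes outside the set were Kif20a, Ncapg, Bub1b, Incenp, Prc1, Kif14, Aurkb, Smc2 and Brca2. Kif20a, a kinesin of cytokinesis, was the closest at 0.064 and had 60.5, 80.9 and 65.8 CPM in CK1i libraries and 31.2, 43.5 and 39.1 CPM in CTRL libraries. Ncapg, a condensin subunit, followed at 0.066, with 46.1, 66.2 and 55.7 CPM in CK1i libraries and 26.3, 40.3 and 37.4 CPM in CTRL libraries. These genes were chosen for their profile, so their group differences are no separate result.

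Promoters are shown for the B cyclins, Cdk1, Ube2c and Cdc20 as examples of the cyclin, kinase, enzyme and coactivator roles, because G2 and mitosis genes are known to be regulated through CCAAT boxes, which bind NF-Y, and through the CHR element, which binds DREAM and B-MYB complexes. RefSeq promoter sequences (GRCm38.p6) were matched for 9 of the 10 genes, with none for Ccna2. The stretches below are 150 bases that end before the start of the gene in both RefSeq and GENCODE, read 5′ to 3′ on the strand of the gene, with CCAAT boxes (CCAAT or its reverse complement ATTGG), CHR letters and E2F letters in capitals. They lie at chr2:164769748-164769897 on the plus strand for Ube2c, chr9:70421555-70421704 on the minus strand for Ccnb2, chr13:100786571-100786720 on the minus strand for Ccnb1, chr10:69352939-69353088 on the minus strand for Cdk1 and chr4:118437353-118437502 on the minus strand for Cdc20.
Ube2c: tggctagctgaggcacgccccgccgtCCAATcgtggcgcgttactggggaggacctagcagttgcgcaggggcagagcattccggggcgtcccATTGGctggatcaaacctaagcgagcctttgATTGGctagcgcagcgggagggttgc
Ccnb2: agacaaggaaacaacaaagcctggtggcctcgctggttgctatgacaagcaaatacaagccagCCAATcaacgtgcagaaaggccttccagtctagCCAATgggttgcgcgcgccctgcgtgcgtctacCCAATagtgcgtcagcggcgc
Ccnb1: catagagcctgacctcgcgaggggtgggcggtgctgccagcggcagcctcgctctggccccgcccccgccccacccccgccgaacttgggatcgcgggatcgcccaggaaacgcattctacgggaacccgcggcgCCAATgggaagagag
Cdk1: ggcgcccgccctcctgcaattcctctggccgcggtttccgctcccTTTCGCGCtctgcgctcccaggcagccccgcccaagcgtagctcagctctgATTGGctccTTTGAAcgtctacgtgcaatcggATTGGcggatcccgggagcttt
Cdc20: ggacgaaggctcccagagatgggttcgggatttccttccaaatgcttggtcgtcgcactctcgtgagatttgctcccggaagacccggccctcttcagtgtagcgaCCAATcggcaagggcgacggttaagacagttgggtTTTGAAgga

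The CHR letters nearest the start of Ube2c and Cdk1 lay past the GENCODE start, so only the site is shown, in 30 bases at chr2:164769888-164769917 on the plus strand for Ube2c and chr10:69352913-69352942 on the minus strand for Cdk1. TTCAAA is the reverse complement of TTTGAA.
Ube2c CHR site: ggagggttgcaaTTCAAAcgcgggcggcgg
Cdk1 CHR site: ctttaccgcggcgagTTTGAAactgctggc

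Both strands of the 250 bases before each RefSeq start were searched for CCAAT, for the CHR letters TTTGAA and TTCGAA, of which TTCGAA is its own reverse complement, and for the E2F letters TTTGGCGC, TTTCCCGC, TTTGCCGC and TTTCGCGC. CCAAT was found in the window of 7 of the 9 genes, and in 33.8% of all 32851 promoters. At least 2 CCAAT boxes were found for 6 of the 9 genes, namely Ube2c, Ccnb2, Ccnb1, Cdk1, Cdc20 and Fbxo5, against 10.1% of all promoters. CHR letters were found for 5 of the 9 (Ube2c, Ccnb2, Cdk1, Cdc20 and Ube2s), against 17.1% of all promoters, and within the last 100 bases for Ube2c, Cdk1 and Cdc20, against 6.13%. The E2F letters were found for Cdk1 alone, against 1.86% of all promoters. Fzr1 had 1 CCAAT box, and none of the letters searched were found in the window of Pttg1. In Ube2c a pair of CCAAT boxes on opposite strands overlapped, at -186 to -182 and -183 to -179 from the RefSeq start. A match describes the letters only. The GENCODE start lies 250 bases before the RefSeq start for Ube2s and 270 for Pttg1, so their windows may miss the promoter in use. It lies 146 bases before for Fzr1, 135 for Fbxo5, 84 for Ccnb1 and 9 for Cdc20. The CCAAT box of Fzr1, all 3 of Fbxo5 and the nearer boxes of Ccnb1 and Cdc20 therefore lie past the GENCODE start.

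**Figure D4:**
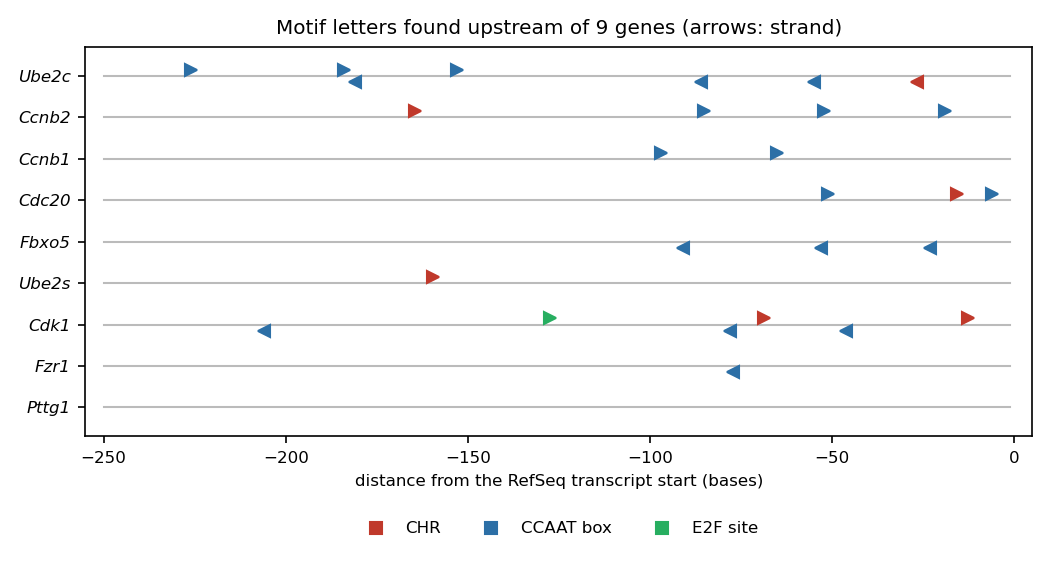
Positions of CHR letters (red), CCAAT boxes (blue) and E2F letters (green) in the 250 bases before the RefSeq start of 9 genes (horizontal axis, distance in bases), ordered by log2 fold change from Ube2c at the top to Pttg1 at the bottom. Arrows pointing right are matches on the strand of the gene and arrows pointing left on the other strand; Ube2c has 6 CCAAT boxes and Pttg1 no match.

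The core subunits of the APC/C had values around 0. Of the 14 genes, all tested, 6 were above and 8 below 0, and the median log2 fold change was -0.024, from -0.071 without CTRL replicate 1 to 0.022 without CTRL replicate 3. The values ran from -0.33 to 0.20. Of the 14, 0 had an unadjusted edgeR p under 0.05, near the shares of all tested genes (2.7% higher and 2% lower in CK1i). Anapc15, a subunit that helps release the checkpoint complex, had a log2 fold change of -0.33 ± 0.22 (SE), and Cdc16, a scaffold subunit, -0.27 ± 0.17. Cdc16 had 30.3, 35.2 and 40.1 CPM in CK1i libraries and 41.9, 44.3 and 40.7 CPM in CTRL libraries. Its groups were apart by a margin smaller than the spread within either group, and 4.48% of all tested genes were apart with CK1i lower. Anapc2, the cullin-like catalytic subunit, had -0.20 ± 0.15. In the other direction, the 3 genes with the smallest p, Anapc10, Anapc13 and Anapc16, had 0.16 ± 0.23, 0.14 ± 0.20 and 0.13 ± 0.15, and the highest value, 0.20 ± 0.33, was that of Cdc26.

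Other substrates of the APC/C had values above 0. Of 14 such genes 13 were tested, all 13 had higher values in CK1i cells, and the median log2 fold change was 0.73. The groups were apart for 9 of the 13, against 5.22% of all tested genes, and 8 had an unadjusted edgeR p under 0.05, against 2.7% of all tested genes with higher values in CK1i, yet none passed the threshold. Nusap1, a spindle protein, had 72.1, 90.0 and 67.8 CPM in CK1i libraries and 23.1, 49.1 and 35.4 CPM in CTRL libraries, a log2 fold change of 1.101 ± 0.23 (SE) at an edgeR adjusted p of 0.409. Hmmr, a hyaluronan receptor that also binds the spindle, had 1.04 ± 0.24, and Ckap2, a microtubule-associated protein, 1.03 ± 0.31. The smallest value, 0.097 ± 0.18, was that of Tk1, the thymidine kinase of S phase, named after its values were seen. Without CK1i replicate 2 the median of the list was 0.51, and without CTRL replicate 1 it was 0.55.

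Genes of the spindle assembly checkpoint, which holds CDC20 inactive until chromosomes are attached, had 7 of 8 tested members above 0 and a median of 0.42. Bub1, a checkpoint kinase, had 23.0, 33.9 and 23.3 CPM in CK1i libraries and 8.52, 17.96 and 15.02 CPM in CTRL libraries, a log2 fold change of 0.96 ± 0.27 (SE) at an edgeR adjusted p of 0.763. Bub1b and Mad2l1, which encode inhibitors that bind CDC20, had 0.65 ± 0.20 and 0.48 ± 0.15. All 3 genes were apart between the groups, as were Bub3 and Trip13, against 5.22% of all tested genes, but none passed the threshold. Mad2l1bp, which encodes a factor that takes the checkpoint apart, had -0.026 ± 0.19. In the separase and cohesin list 11 of 12 genes were above 0, with a median of 0.23, which was 0.13 when CK1i replicate 2 was left out and 0.14 when CTRL replicate 1 was. Espl1, the gene of separase, the protease that securin holds inactive, had 56.3, 92.0 and 58.6 CPM in CK1i libraries and 23.8, 53.1 and 43.1 CPM in CTRL libraries. Its log2 fold change was 0.79 ± 0.29 (SE; by edgeR, adjusted p = 0.990), beside -0.016 for Pttg1. The cohesin subunit Rad21, which separase cuts, had 0.30 ± 0.15, the cohesin protector Cdca5 0.48 ± 0.26, and the cohesin regulator Pds5a -0.070 ± 0.15.

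Regulators of CDK1 were mixed, with 8 of 13 tested genes above 0 and a median of 0.14. That median was 0.027 without CTRL replicate 3, 0.076 without CTRL replicate 1 and 0.064 without CK1i replicate 2. Cks1b, a small subunit that binds cyclin-dependent kinases, had 120, 142 and 92.2 CPM in CK1i libraries and 39.4, 78.6 and 70.8 CPM in CTRL libraries, a log2 fold change of 0.91 ± 0.25 (SE) at an edgeR adjusted p of 0.794. Mastl, the Greatwall kinase, had 0.91 ± 0.42 at under 8 CPM in every library, and the inhibitory kinase Pkmyt1 0.37 ± 0.22. Cdkn1a, the p21 inhibitor, had 118, 102 and 99.1 CPM in CK1i libraries and 122, 172 and 114 CPM in CTRL libraries, overlapping, with a log2 fold change of -0.35 ± 0.17. Cdkn1b, the p27 inhibitor, had -0.086 ± 0.14 and the phosphatase Cdc25b -0.029 ± 0.19. Other cyclins and their kinases had 5 of 8 tested genes above 0 and a median of 0.13, led by Ccnf, a cyclin with an F-box that is part of another ubiquitin ligase, at 1.04 ± 0.47, and by Ccne2 and Ccne1, the cyclins of S phase entry, at 0.65 ± 0.31 and 0.21 ± 0.23. The median of that list was -0.024 without CTRL replicate 1, 0.012 without CK1i replicate 2, 0.081 without CTRL replicate 2 and 0.21 without CTRL replicate 3. The kinases Cdk6, Cdk4 and Cdk2 had -0.28 ± 0.23, -0.075 ± 0.18 and -0.011 ± 0.15. None of these genes passed the threshold.

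Transcription factors that act on G2 and mitosis genes had 14 of 16 tested genes above 0 and a median of 0.18, which was 0.29 without CTRL replicate 2. Foxm1 had 41.1, 46.0 and 39.3 CPM in CK1i libraries and 18.1, 29.1 and 35.4 CPM in CTRL libraries, apart between the groups, with a log2 fold change of 0.61 ± 0.22 (SE) at an edgeR adjusted p of 0.929. Rbl1, a pocket protein of the DREAM complex, had 0.59 ± 0.17, and E2f8, a repressor of E2F genes, 0.88 ± 0.37. Lin52 and Lin37, which encode constant subunits of that complex, had -0.32 ± 0.24 and -0.33 ± 0.43. Deubiquitinases and other ubiquitin-conjugating enzymes had 3 of 6 tested genes above 0 and a median of 0.0021, which ran from -0.083 without CTRL replicate 2 to 0.10 without CTRL replicate 1. Ube2d2a, Usp37 and Ube2d3 had 0.17 ± 0.15, 0.13 ± 0.17 and 0.062 ± 0.17, while Usp22, Otud7b and Ube2d1 had -0.14 ± 0.15, -0.11 ± 0.14 and -0.058 ± 0.18.

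**Figure D5:**
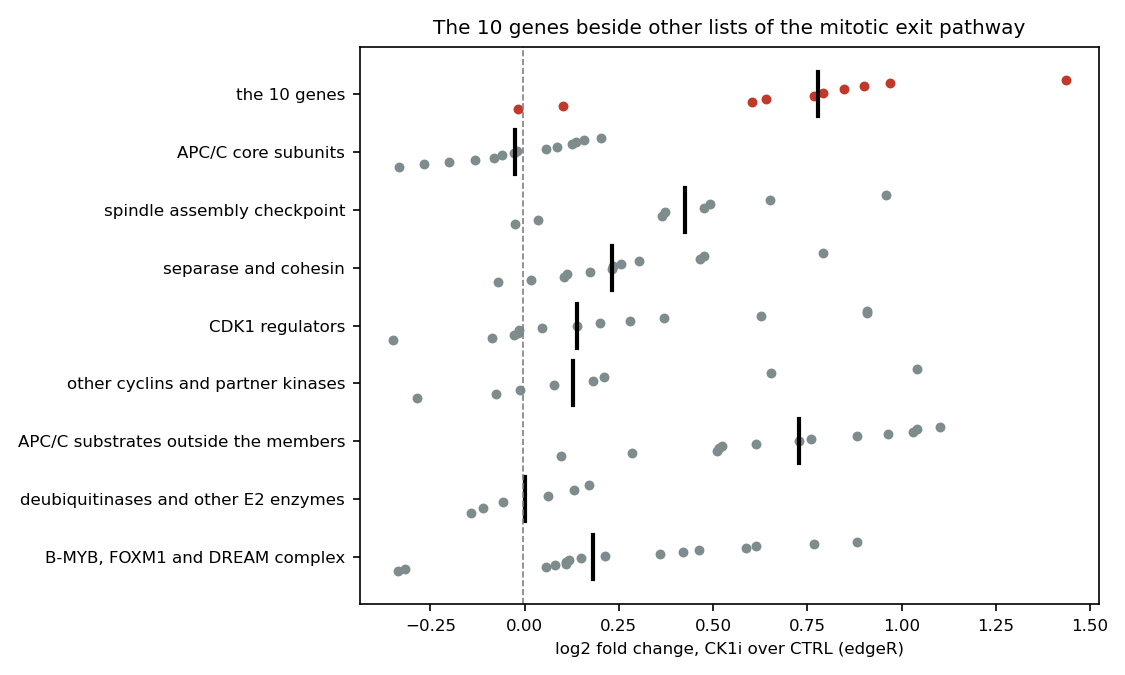
Log2 fold change of CK1i over CTRL (horizontal axis, edgeR) for each tested gene of the set (red) and of 8 lists of the same pathway (grey); black bars are list medians and the dashed line the median of all tested genes. The median is 0.78 for the 10 genes and 0.73 for other APC/C substrates, and -0.024 for the APC/C core subunits.

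Library totals ran from 2472064 to 3105137 counts in CK1i and from 2472320 to 3064371 in CTRL, and the 10 genes held from 270 counts (Ube2s) to 1492 counts (Fzr1) over the 6 libraries. Counting error alone gave a log2 fold change an SE of 0.075 for Fzr1, 0.14 for Ube2c and 0.18 for Ube2s, against a fitted SE of 0.16, 0.29 and 0.31 in the same order. Genes on the opposite strand overlap some members, and the sources used here do not state how strand was treated in counting. Exosc9, which overlaps Ccna2, held 1037 counts with a log2 fold change of 0.09 ± 0.15 (SE). Elovl1, which overlaps Cdc20, held 706 counts with -0.26 ± 0.18, and Mfsd12, which overlaps Fzr1, held 639 with 0.19 ± 0.18. Tnnc2 and Rpl28, which overlap Ube2c and Ube2s, held 1 and 92 counts. Rpl28, a ribosomal protein gene, had only 3.59 to 7.68 CPM over the 6 libraries. Whether reads shared by Rpl28 and Ube2s were lost or misplaced in counting was not tested. The low depth of Ube2s, its profile and its ratio to Ube2c carry that limit. The pseudogenes Ccnb1-ps and Ccnb2-ps held 0 and 7 counts.

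Markers of the sorted leukaemic B cells, Ms4a1 and Cd5, overlapped between the groups, while 3 lists of markers of other cells were apart. Ms4a1, which encodes the B-cell protein CD20, had 2177 to 2589 CPM in CK1i libraries and 2123.3 to 2187 CPM in CTRL libraries. Cd5, a marker of these CLL cells, had 27.7 to 31.7 CPM in CK1i libraries and 25.9 to 34.3 CPM in CTRL libraries. The 8 monocyte and macrophage markers summed to 35.6 to 45.7 CPM in CK1i and 27.7 to 30.7 CPM in CTRL, most of it Cd68, and Csf1r held 6 and C1qa 2 counts over the 6 libraries. The 8 erythroid markers found summed to 79.6 to 97.5 CPM in CK1i and 103 to 128 CPM in CTRL, nearly all from the transferrin receptor gene Tfrc, with Epor at 0. The 5 NK markers summed to under 1 CPM in every library, 0.80 to 0.99 CPM in CK1i and 0.40 to 0.71 CPM in CTRL, with Ncr1 at 0. T-cell markers (7 genes) summed to 2.28 to 16.4 CPM in CK1i and 4.39 to 11.7 CPM in CTRL. Germinal centre markers (6 genes) summed to 36.5 to 40.4 CPM in CK1i and 27.7 to 48.7 CPM in CTRL, with Gcsam at 0. Bcl6, a germinal centre transcription factor named after its values were seen, had 7.57, 4.57 and 4.81 CPM in CK1i libraries and 2.84, 2.79 and 1.34 CPM in CTRL libraries, without overlap, and a log2 fold change of 1.29 ± 0.44 (SE), and its edgeR adjusted p was 0.929. Plasma cell markers (5 genes) summed to 578 to 1502 CPM in CK1i and 1052 to 1736 CPM in CTRL. Neutrophil markers (5 genes) held counts in CK1i replicate 1 alone, at 3.29 CPM, with Ly6g, Mpo and Elane at 0. The part of these cells in the levels of the mitotic genes was not tested.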

How the data were processed

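RNA of sorted splenic leukaemia cells was sequenced from transcript 3' ends, with unique molecular identifiers (UMIs) added, per the labels' protocols. The values deposited by the authors are raw gene counts, all whole numbers. The submitters' processing notes list UMI-tools 1.1.1, Trimmomatic 0.36, STAR 2.7.3a and featureCounts 1.6.3 with the build GRCm38.p6. The sources used here do not state whether UMIs were collapsed. Counting errors and limits from a count of 0 cover counting error only. All libraries carry the same batch label.

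The counts were fitted with edgeR 4.0.16 under R 4.3.3: filterByExpr (minimum count 10, minimum total 15), TMM, and the robust, bias-adjusted quasi-likelihood F test of CK1i against CTRL, adjusted by Benjamini-Hochberg over 10067 genes (threshold 0.05). The SE is the log2 fold change divided by the root of F. Log2 CPM and ratios use a prior count of 2. DESeq2 1.42.0 and limma 3.58.1 were alternatives. Ratios were compared by two-sided exact permutation. The fit was also run on simulated counts in which all genes shared the same spread and no library stood apart, unlike these data.

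The members, the lists and the rule for named genes were chosen with earlier results of these data known. The rule took every member, up to 3 genes in each direction of each list by smallest p, and the 10 genes closest in profile. Other named genes were chosen after their values were seen. Symbols came from the table, or from GENCODE M21 for the 22496 genes without one. Of the markers, Hbb-bs was not matched. Some genes that the rule or the marker lists name are not reported here.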

Additional observations from a re-analysis of the deposited data

How the results depend on the processing

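The count of genes past the threshold was 0 in edgeR, and was 0 with RLE size factors, with a minimum count of 20 and in limma-voom, 8 in DESeq2, 3 with no low-count filter, and 0 to 1 with any 1 library left out (1 without CK1i replicate 2, CTRL replicate 1 or CTRL replicate 3). DESeq2 called Ube2c alone among the 10 genes, and no other alternative called any of them. The median log2 fold change of the 10 genes ran from 0.53 (without CTRL replicate 1) to 0.98 (without CTRL replicate 2), and the number of genes apart from 5 to 7. It was 7 without CK1i replicate 1 or CTRL replicate 2, where 10.2% and 11.6% of all tested genes were apart with CK1i higher. With 1 library left out, Fzr1 ran from -0.020 (without CTRL replicate 1) to 0.22 and Pttg1 from -0.21 to 0.12. Pttg1 turned to 0.11 when CK1i replicate 2 was left out, to 0.027 when CK1i replicate 3 was, and to 0.12 when CTRL replicate 3 was. The other 8 genes kept their direction in every alternative run. The cyclin B to Ccna2 ratio turned to -0.17 without CK1i replicate 3, -0.012 without CTRL replicate 2 and -0.25 without CTRL replicate 3, and was 0.30 without CTRL replicate 1. The Cdc20 to Fzr1 ratio difference ran from 0.54 to 0.89 and that of Ube2c to Ube2s from 0.26 to 1.23 with 1 library left out. The cause of these shifts was not tested. With 2 libraries left in a group, p rests on the spread of both groups. No paired analysis was possible because the labels give no replicate numbers shared between the groups. The counting SE was below the fitted SE for each of the 10 genes, Ube2s included, the gene of lowest depth.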

Other observations

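Several genes of the same pathway were not tested. Cdc25c, the phosphatase that activates CDK1, had 8, 16 and 8 counts in CK1i replicates 1 to 3 and 2, 5 and 5 counts in CTRL replicates 1 to 3. Cks2, the close relative of Cks1b, had 3, 6 and 6 counts in CK1i libraries and 1, 1 and 2 counts in CTRL libraries. For both genes every CK1i value was above every CTRL value, also as CPM. Both had too few counts to test, and the shares given above cover tested genes only, so no share stands beside this. Ccna1, Ccnb3 and Ccnd1, cyclins used mainly in germ cells or other tissues, held no count in any of the 6 libraries, so that up to 0.177 CPM remains possible for each over the libraries together (3 counts, counting error only). Skp2, which encodes the F-box protein that marks p27 for destruction, and Nfya, which encodes a subunit of the CCAAT-binding factor NF-Y, are also listed at 0 in all 6 libraries, while the other NF-Y subunit genes, Nfyb and Nfyc, were among the tested genes. Skp2 and Nfya are widely used in dividing cells, and whether their zeros come from how reads were counted was not tested, so no limit is given for them.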
